A study of Mus musculus with 16 samples.

Results

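Gstk1, Casp2, Fam131b and Zyx are 4 of the 23284 genes measured by RNA sequencing in mouse prefrontal cortex. They lie side by side on chromosome 6, and they were chosen because their levels in the Cre-carrying lines differed from those in controls. RNA came from 16 mice, 4 of each genotype. APC cKO mice carried APC fl/fl alleles, β-cat cOE mice carried ctnnb1 fl(ex3)/+, and APC/β-cat cKO mice carried both APC fl/fl and ctnnb1 fl/fl. All 3 lines carried the same CamKIIα-Cre-93 driver, which is active mainly in forebrain excitatory neurons. Controls were Cre-negative littermates pooled from all lines, and the mice were young adults. Since every mutant carried Cre and no control did, the presence of Cre, the DNA inherited with the Cre transgene and the deletion of a floxed gene cannot be told apart in a comparison with controls. The Cre-carrying lines do differ from each other in their floxed alleles, so a comparison among them addresses whether the 4 genes follow APC or β-cat.

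APC is a scaffold of the complex that marks β-cat for degradation, and β-cat is both a cadherin partner at synapses and the co-activator of TCF/LEF factors in the canonical Wnt pathway. Deletion of APC or of ctnnb1 exon 3 raises β-cat, and deletion of ctnnb1 lowers it. The 4 genes are not among the textbook members of this pathway, and their products have unrelated roles. Gstk1 encodes the kappa class glutathione transferase, an enzyme of mitochondria and peroxisomes. Casp2 encodes caspase-2, an initiator caspase that acts upstream of mitochondrial apoptosis. Zyx encodes zyxin, a LIM domain protein of focal adhesions and actin stress fibres that binds Ena/VASP proteins. Fam131b encodes a protein whose function is little described.

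In the GENCODE annotation of GRCm38, the order along the chromosome is Gstk1, Casp2, Fam131b and Zyx. Gstk1 runs from 42245935 to 42250447 on the plus strand. The transcript with its longest coding sequence has 8 exons, 930 nucleotides and 226 coding codons. Casp2 runs from 42264985 to 42282508 on the plus strand, with 11 exons, 3529 nucleotides and 452 codons in the corresponding transcript. Fam131b runs from 42315312 to 42324643 on the minus strand, with 7 exons, 4104 nucleotides and 360 codons. Zyx runs from 42349630 to 42360213 on the plus strand, with 11 exons, 3188 nucleotides and 564 codons. The stretches between neighbouring members of this row are 14537, 32803 and 24986 bases long, so no 2 of the 4 genes share exons. Each of 2 genes shares exon bases with a gene on the other strand. Fam131b shares 445 bases (10.8% of its exon bases) with Clcn1, which had a mean of 0.245 FPKM, and Zyx shares 236 bases (4.38%) with Epha1, which had a mean of 0.157 FPKM. FPKM is a level per gene, the fragments scaled by transcript length and by the mapped fragments of the library. Whether counting used the strand was not given in the sources used here, so reads from such shared bases cannot be assigned to 1 gene.

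The 250 bases before the start of each gene were read from the RefSeq promoter table of GRCm38.p6, and all 4 genes matched it. That table counts from 1 start per gene, and other annotated starts can lie further upstream. All 250 bases of the Zyx window lie within Zyx as RefSeq spans it, and 198 of them within Zyx in GENCODE, so the Zyx sequence is not shown. Sequences of the other genes are shown because the lines were built to change β-cat, whose target genes are reached through TCF/LEF sites. The TCF/LEF core CTTTGAT, searched on both strands, was in 0 of the 4 windows, against 3.21% of 32851 promoter windows of this length. The CArG box, through which serum response factor acts on many actin genes, was also in 0 of 4, against 1.47% of all windows. A missing match says only that these letters are not in the window. Capitals below mark the GC box GGGCGG and the CCAAT box CCAAT on either strand, which were picked after the sequences were read. The Gstk1 window is chr6:42245685-42245934 on the plus strand. For Casp2 the bases upstream of all annotated exons are shown, chr6:42264735-42264901 on the plus strand, and for Fam131b chr6:42324644-42324890 on the minus strand.
Gstk1: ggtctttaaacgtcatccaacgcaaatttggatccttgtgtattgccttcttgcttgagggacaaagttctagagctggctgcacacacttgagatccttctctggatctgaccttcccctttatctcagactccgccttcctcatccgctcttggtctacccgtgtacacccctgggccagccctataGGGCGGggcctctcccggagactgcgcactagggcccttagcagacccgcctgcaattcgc
Casp2: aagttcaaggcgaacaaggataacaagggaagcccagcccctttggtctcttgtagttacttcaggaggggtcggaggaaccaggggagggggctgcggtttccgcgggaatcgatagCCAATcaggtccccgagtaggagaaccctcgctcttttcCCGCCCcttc
Fam131b: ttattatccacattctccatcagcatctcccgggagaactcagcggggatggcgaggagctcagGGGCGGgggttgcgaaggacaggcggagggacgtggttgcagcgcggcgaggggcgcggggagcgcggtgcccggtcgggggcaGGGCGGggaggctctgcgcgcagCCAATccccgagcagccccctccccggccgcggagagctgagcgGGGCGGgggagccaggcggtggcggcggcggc
The GC box stood 1 time before Gstk1, 1 time before Casp2, 3 times before Fam131b and 2 times in the Zyx window, and 32.7% of all windows held at least 1. The CCAAT box stood 2 times in the whole Casp2 window, of which 1 lies in the bases shown, and 1 time before Fam131b. It was absent from the Gstk1 and Zyx windows, and 33.8% of all windows held it. GC content was 55.6% for Gstk1, 60.4% for Casp2, 74.4% for Fam131b and 67.6% for Zyx. The median of all windows was 52.4%, so the Fam131b window stood at percentile 95.4 and that of Gstk1 at percentile 60.1. Both GC content and the number of GC boxes were lower for Gstk1 and Casp2 than for Fam131b and Zyx, which with 4 genes is a description alone.

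Gstk1 stood in the middle of the expressed genes in control cortex, at percentile 50.9 of the 13978 genes tested, and was lower in all 12 Cre libraries. It was at 9.54, 9.57, 10.97 and 11.4 FPKM in the 4 controls. In APC cKOs it was at 8.04, 4.40, 4.84 and 5.44 FPKM, in β-cat cOEs at 4.74, 5.30, 5.10 and 6.66 FPKM, and with APC/β-cat cKO at 5.33, 6.68, 5.71 and 8.35 FPKM. The groups did not overlap, but the highest Cre library, APC/β-cat cKO replicate 4, came within 1.14 times of the lowest control. Controls averaged 10.4 ± 0.956 FPKM (SD, n = 4). The APC cKO mean was 5.68 ± 1.63, the APC/β-cat cKO mean 6.51 ± 1.35 and the β-cat cOE mean 5.45 ± 0.837. Averaged over the Cre libraries, Gstk1 stood at 56.7% of the control mean.

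Casp2 was the least abundant of the 4 genes, with a control level at percentile 25.9. Controls were at 3.36, 3.42, 3.52 and 3.84 FPKM. APC cKOs were at 2.09, 1.499, 1.94 and 1.93 FPKM, β-cat cOEs at 2.20, 1.59, 1.91 and 1.83 FPKM, and APC/β-cat cKOs at 1.57, 1.89, 1.58 and 1.64 FPKM. Every Cre library was below every control, and the nearest pair of libraries was 1.52 times apart. Controls averaged 3.54 ± 0.216 FPKM (SD, n = 4). The APC cKO mean was 1.86 ± 0.254, the APC/β-cat cKO mean 1.67 ± 0.150 and the β-cat cOE mean 1.88 ± 0.253. The Cre mean was 51.1% of the control mean.

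Fam131b was the most abundant, with a control level at percentile 89.7, and it was higher in all Cre libraries. Controls were at 63.2, 64.1, 67.2 and 66.7 FPKM, a narrow range. APC cKOs were at 108, 112, 98.7 and 109.9 FPKM, β-cat cOEs at 110.0, 112, 117 and 105 FPKM, and APC/β-cat cKOs at 119.9, 104, 109 and 107 FPKM. The lowest Cre library, APC cKO replicate 3, was still 1.47 times the highest control. Controls averaged 65.3 ± 1.92 FPKM (SD, n = 4). The APC cKO mean was 107 ± 5.80, the APC/β-cat cKO mean 110.0 ± 6.86 and the β-cat cOE mean 111 ± 4.98. The Cre mean was 168% of the control mean.

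Zyx was also higher with Cre, by less. Controls were at 15.5, 14.8, 13.0 and 14.98 FPKM. APC cKOs were at 22.8, 21.1, 18.03 and 24.3 FPKM, β-cat cOEs at 18.5, 18.5, 20.3 and 18.5 FPKM, and APC/β-cat cKOs at 21.4, 21.8, 19.7 and 21.1 FPKM. The groups did not overlap, and the lowest Cre library, APC cKO replicate 3, was 1.16 times the highest control. Controls averaged 14.6 ± 1.09 FPKM (SD, n = 4). The APC cKO mean was 21.6 ± 2.69, the APC/β-cat cKO mean 21.03 ± 0.915 and the β-cat cOE mean 19.0 ± 0.859. The Cre mean was 141% of the control mean. In whole tissue, fewer cells of a type and less RNA per cell cannot be told apart, which holds for all 4 genes.

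**Figure D1:**
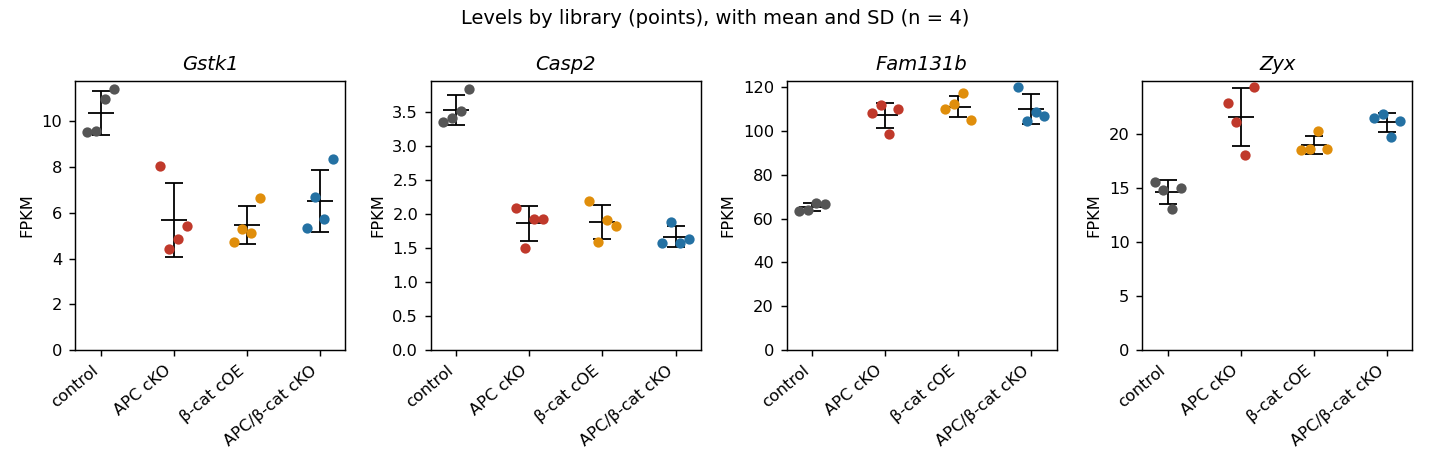
FPKM of Gstk1, Casp2, Fam131b and Zyx (vertical axes, each from 0) in every library of the 4 genotypes (horizontal axis). Points are libraries, the bar is the mean and the error bars the SD (n = 4). All 12 Cre libraries lie below the controls for Gstk1 and Casp2 and above them for Fam131b and Zyx.

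As a log2 difference between the mean of the 3 Cre lines and controls, on the scale of log2(FPKM + 0.1), Gstk1 was at -0.83 (standard error 0.14) and Casp2 at -0.94 (0.099). Fam131b was at 0.74 (0.044) and Zyx at 0.49 (0.066). The median of all genes tested was -0.0017, and the median size of a difference, without its sign, was 0.076. The 2 genes at the left end of the row were thus lower with Cre and the 2 at the right end higher. Line by line, in the order APC cKO, β-cat cOE, then APC/β-cat cKO, Gstk1 was at -0.89, -0.92 and -0.68. Casp2 was at -0.90, -0.88 and -1.04 in the same order. Fam131b was at 0.71, 0.77 and 0.75, and Zyx at 0.55, 0.38 and 0.53. These comparisons share the same controls and are the ones on which the 4 genes were chosen, so no test of them is read for the 4 genes.

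Across all genes, 5 of 13978 (0.0358%) passed limma's test of all Cre lines against control at an adjusted p under 0.05. They were Fam131b, Casp2, Zyx, Apc and, on chromosome 8, Wwox, which encodes an oxidoreductase with WW domains. Gstk1 was the one of the 4 that did not pass, and it missed narrowly (limma adjusted p = 0.0536). Counting the main fit, other processing settings and fits with a library left out, Gstk1 passed in 6 of 27 fits. Each of the other 3 genes passed in all 27. These fits reuse the values on which the genes were chosen, so the tally adds no evidence for them. In 28 of 13978 genes (0.200%; 12 higher, 16 lower) the Cre libraries and controls did not overlap, and all 4 genes were among them. Of the 684 tested genes of chromosome 6, no other was among these 28. Nothing is read from these counts for the 4 genes, whose choice used the same contrast.

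The genes were not chosen on the comparison among the 3 Cre lines itself. A choice of genes that differed from controls in every line can still favour genes that look alike among the lines. A lack of calls is therefore weak evidence here. This comparison asks for any difference among the 3 lines, all with the same Cre, and not only for one between raised and reduced β-cat. With limma's F test, 0 of the 4 genes passed at an adjusted p under 0.05, and 0 had an unadjusted p under 0.05. Over all genes tested, 36 of 13978 (0.258%) passed. Adjusted p was 0.705 for Gstk1, 0.735 for Casp2, 0.847 for Fam131b and 0.511 for Zyx, from limma. As a measured contrast, Apc, which is intact in β-cat cOEs and deleted in both of the other lines, had an adjusted p of 4.56e-05 in this test.

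The intervals show how far the lines could differ. For Fam131b, the log2 difference of β-cat cOE from APC cKO was 0.053 (95% interval -0.060 to 0.17). That of APC/β-cat cKO from APC cKO was 0.038 (-0.076 to 0.15), and that of APC/β-cat cKO from β-cat cOE was -0.016 (-0.13 to 0.098). All 3 intervals stay far inside the difference of 0.74 from controls. For Casp2 the 3 differences, in the same order, were 0.015 (-0.24 to 0.27), -0.14 (-0.40 to 0.11) and -0.16 (-0.42 to 0.10). Gstk1 was measured less tightly, with -0.031 (-0.40 to 0.33), 0.21 (-0.15 to 0.58) and 0.24 (-0.12 to 0.61). The largest of these bounds allows lines to differ in Gstk1 by a good part of its difference from controls.

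Zyx was the gene in which the lines came closest to a difference. β-cat cOE was below APC cKO by a log2 difference of -0.18 (-0.35 to -0.0049, limma unadjusted p = 0.0445, adjusted p = 0.640). APC/β-cat cKO differed from APC cKO by -0.028 (-0.20 to 0.14) and from β-cat cOE by 0.15 (-0.023 to 0.32). The lowest and highest line means of Zyx were 0.18 apart on the log2 scale, against an SD of 0.12 within lines. For the other 3 genes the line means were closer than the SD within lines, at 0.24 against 0.30 for Gstk1, 0.16 against 0.17 for Casp2 and 0.053 against 0.078 for Fam131b. This SD is that of single libraries and not of a line mean, so setting it beside the line means is a description alone. As no gene passed the F test, the order of the lines was not resolved for any of the 4 genes. A p that misses the threshold does not show that the lines were alike.

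**Figure D2:**
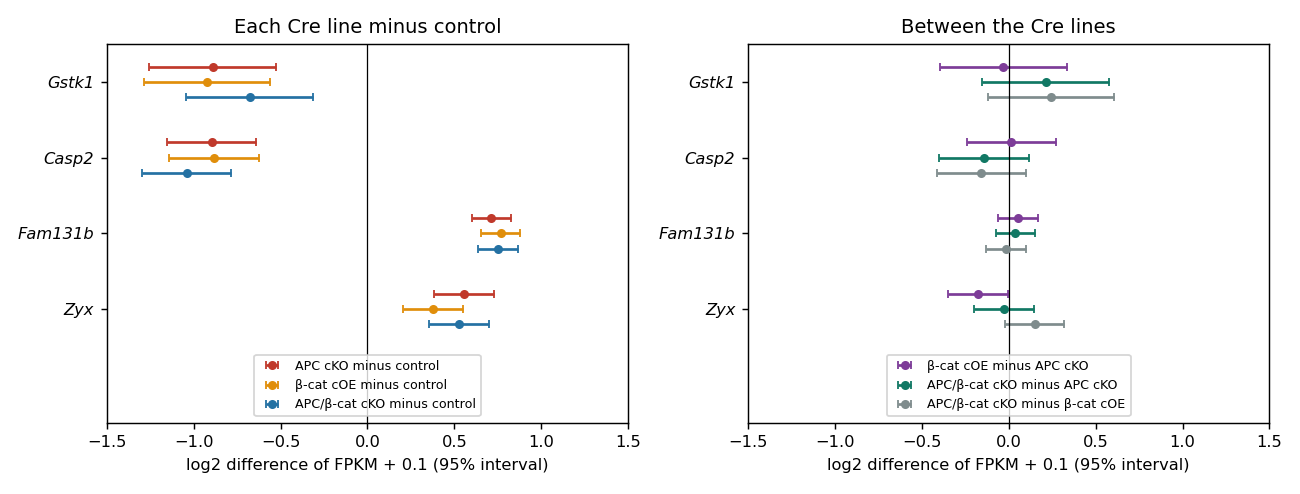
Log2 differences of FPKM + 0.1 (horizontal axes) with 95% intervals for the 4 genes (vertical axis). The left panel, each Cre line minus control, shows the contrast on which the genes were chosen, and the right panel shows the lines against each other. On the right, 11 of 12 intervals include 0, and that of Zyx in β-cat cOE minus APC cKO ends at -0.0049.

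The level of Apc separated the lines with APC fl/fl alleles from β-cat cOEs and controls. That of Ctnnb1 overlapped between groups, except that every APC/β-cat cKO library was below every APC cKO library. Apc ranged from 40.8 to 50.1 FPKM in controls and 38.8 to 49.5 FPKM in β-cat cOEs, against 7.85 to 17.1 FPKM in the APC cKO libraries and 6.80 to 12.2 FPKM in those of APC/β-cat cKO. Ctnnb1 ranged from 155 to 166 FPKM both in controls and in β-cat cOEs. It ranged from 157.3 to 182 FPKM with APC cKO and from 151 to 156.7 FPKM with APC/β-cat cKO. Its value per gene counts transcripts with and without the floxed exons. The difference among the Cre lines had an adjusted p of 0.353 for Ctnnb1 with limma's F test. APC/β-cat cKO differed from APC cKO in Ctnnb1 by a log2 difference of -0.14 (95% interval -0.24 to -0.041, limma unadjusted p = 0.00832, adjusted p = 0.295).

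A ratio of a gene that was higher and a gene that was lower, within a library, does not depend on the scaling of the libraries. Fam131b over Casp2 lay between 17.3 and 19.1 in the controls, with a median of 18.8, and between 50.0 and 76.2 in the 12 Cre libraries, with a median of 59.3. By line, the median ratio was 54.3 (APC cKO), 67.0 (APC/β-cat cKO) and 59.3 (β-cat cOE). Zyx over Gstk1 was 1.19 to 1.63 in controls and 2.53 to 4.80 in the Cre libraries. Both ratios hold the contrast that chose the genes, and they are given as a description.

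**Figure D3:**
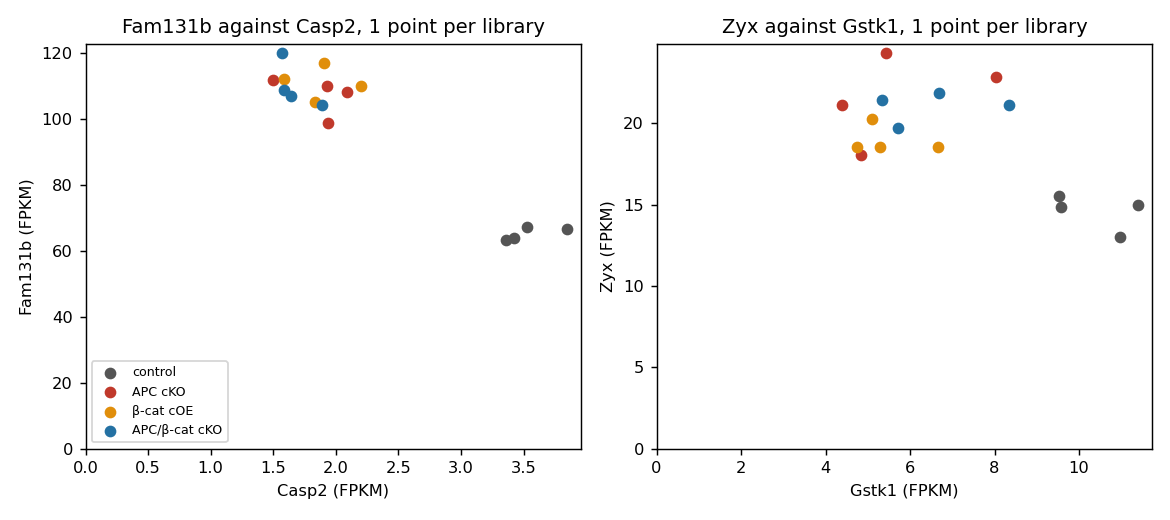
Fam131b against Casp2 (left) and Zyx against Gstk1 (right), in FPKM on axes that start at 0, with 1 point per library and colours for the 4 genotypes. The 4 controls lie apart from the 12 Cre libraries in both panels, and the points of the 3 Cre lines are mixed.

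Within the genotypes the correlations between the 4 genes were of mixed sign, and none was above 0.38. After the mean of each group was taken away, Pearson's r over the 16 libraries was 0.38 for Gstk1 with Casp2 and 0.36 for Fam131b with Zyx. It was -0.27 for Casp2 with Fam131b and -0.23 for Gstk1 with Fam131b. It was 0.22 for Gstk1 with Zyx and 0.14 for Casp2 with Zyx. Libraries share their depth and scaling across genes, and the values are descriptions with no test.

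The other genes near the 4 were read in the same comparison. The table lists 75 other genes within 2 Mb of Fam131b, of which 39 were at 0 in all libraries and 9 passed the filter of a mean of at least 0.5 FPKM. By limma, 0 of the 9 were called for all Cre lines against control, 0 had an unadjusted p under 0.05, and in 0 the groups did not overlap. Over all genes tested these shares were 0.0358%, 8.99% and 0.200%, so among 9 genes counts of 0 or near 0 are also what the background gives. Their median log2 difference was -0.047 and the range -0.23 to 0.044, with 3 higher and 6 lower, and the smallest adjusted p was 0.626. The 4 genes had been picked from this stretch for their difference, so the others are by construction those that differed less.

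The tested gene nearest to the row is Fam115a, 314 kb beyond Zyx. It was at 58.1 ± 3.24 FPKM in controls (SD, n = 4) and 57.6 ± 6.02 FPKM in the Cre libraries (SD, n = 12), a log2 difference of -0.017 (95% interval -0.17 to 0.14). The next on that side is Arhgef5, 907 kb away, with 0.498 FPKM in controls and 0.519 FPKM with Cre. On the other side the nearest are Trpv6, a calcium channel gene, 610 kb before Gstk1, and Ephb6, an Eph receptor gene, 625 kb before it. Trpv6 was at 1.496 FPKM in controls and 1.40 FPKM with Cre, with a log2 difference of -0.12 (-0.51 to 0.26). Ephb6 was at 43.8 FPKM in controls and 41.0 FPKM with Cre, with a log2 difference of -0.10 (-0.34 to 0.13). Between these genes and the row, no gene passed the filter, so where the difference ends could not be placed more closely than this.

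Inside the row and at its edge, the other genes were too low to test and were named after their values were seen. Clcn1, a muscle chloride channel gene between Casp2 and Fam131b, was at 0.308 ± 0.056 FPKM in controls (SD, n = 4; 0.246 to 0.382) and 0.224 ± 0.090 FPKM with Cre (SD, n = 12; 0.107 to 0.351). The groups overlapped. Tmem139, between Gstk1 and Casp2, was listed at 0 in 12 of 16 libraries. Epha1 lies just beyond the end of Zyx in the deposited coordinates and shares exon bases with Zyx in GENCODE. Its level was 0.110 ± 0.044 FPKM in controls (SD, n = 4, range 0.062 to 0.168). With Cre it was 0.173 ± 0.036 FPKM (SD, n = 12, range 0.094 to 0.226), and these groups overlapped too.

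**Figure D4:**
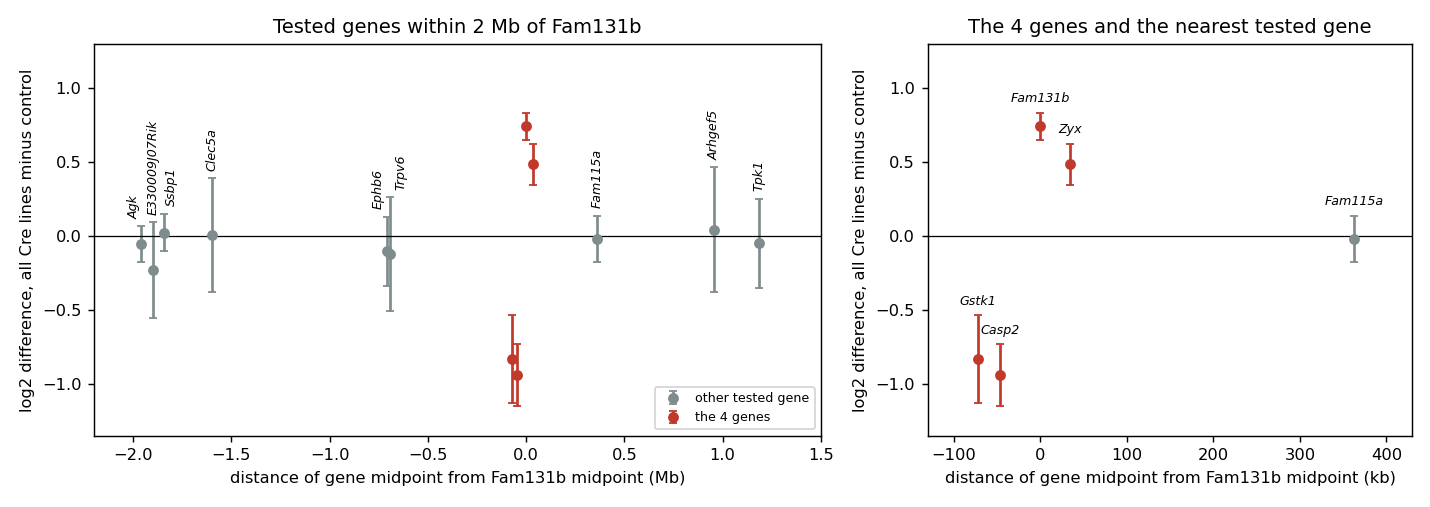
Log2 difference of FPKM + 0.1, all Cre lines minus control, with 95% intervals (vertical axes), against the distance of each gene's midpoint from that of Fam131b (horizontal axes, Mb on the left and kb on the right). The 4 genes are in red and the other tested genes in grey. All 9 grey intervals include 0, and Fam115a is the only one of the 9 in the right panel.

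The families and pathways of the 4 proteins were read from 7 lists with 83 genes in the table, of which 71 were tested. By limma, 0 of 71 were called for all Cre lines against control and 0 among the Cre lines. At an unadjusted p under 0.05 there were 6 higher and 1 lower, 9.86% of the 71, against 8.99% of all genes tested. The median log2 difference of the 71 was 0.010. In 0 of the 71 did the Cre libraries and controls stand apart.

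Of the other caspases, 6 of 9 were tested, with a median log2 difference of 0.13. Casp9, the initiator caspase of the apoptosome, was at 12.5 FPKM in controls and 12.2 FPKM with Cre, a log2 difference of -0.024. Of 15 genes of caspase-2 activation and intrinsic apoptosis, all were tested, with a median of 0.010. Cycs, the gene of cytochrome c, was at 94.0 FPKM in controls and 88.7 FPKM with Cre, and the survival gene Bcl2l1 at 39.7 and 40.4 FPKM. Bax, which opens the outer mitochondrial membrane, was named after its values were seen, since it had the smallest adjusted p of the list, with a log2 difference of 0.22 (limma adjusted p = 0.508).

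Of the zyxin family of LIM domain genes, 3 of 6 were tested, with log2 differences of 0.12 to 0.26 and a median of 0.22, and none was called. Trip6 was at 1.47 FPKM in controls and 1.80 FPKM with Cre, and Limd1 at 2.22 and 2.42 FPKM. All 15 genes of zyxin partners and focal adhesion were tested, with a median of -0.030. Evl, an Ena/VASP protein gene, was at 43.5 FPKM in controls and 45.9 FPKM with Cre, and Lasp1, a LIM and SH3 protein gene, at 50.7 and 48.6 FPKM. Of the Fam131 family, Fam131a was at 167 FPKM in controls and 164 FPKM with Cre (log2 difference -0.027). Fam131c was at 1.71 and 1.64 FPKM (-0.11).

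Of the other glutathione transferases, 18 of 24 were tested, with a median log2 difference of 0.036. Gstm5 was at 204 FPKM in controls and 212 FPKM with Cre, and the microsomal Mgst3 at 193 FPKM in both. All 12 genes of glutathione synthesis and use were tested, with a median of -0.026. The peroxidase genes Gpx1 and Gpx4 were at 72.2 and 305 FPKM in controls and 75.1 and 328 FPKM with Cre. None of the 18 transferases and none of the 12 other glutathione genes was called.

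**Figure D5:**
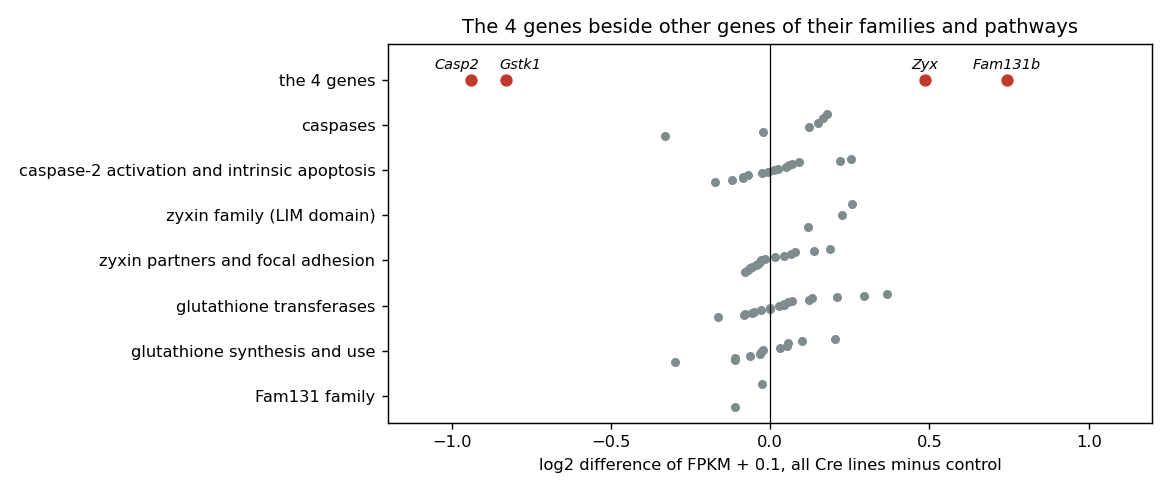
Log2 difference of FPKM + 0.1, all Cre lines minus control (horizontal axis), for the 4 genes in red and the tested genes of 7 lists in grey, 1 row per list and 1 point per gene. The listed genes lie between -0.33 and 0.37, inside the values of Casp2 (-0.94) and Zyx (0.49).

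The tested genes whose pattern over the 16 libraries was most like each of the 4 were ranked by Pearson's r on the log2 scale. All these r values hold the difference between controls and Cre libraries on which the 4 genes were chosen, and they are given as descriptions. For Fam131b the highest were Zyx (0.864), Jun (0.774) and Tusc1 (0.766), and the lowest was Casp2 (-0.940). For Zyx the highest were Fam131b (0.864), Zfp605 (0.815) and Jun (0.798), and the lowest was Srfbp1 (-0.865). For Casp2 the highest were Gm15645 (0.856), Gstk1 (0.805) and Zfp455 (0.801), and the lowest was Fam131b (-0.940). Gstk1 had Casp2 (0.805), Gatc (0.722) and Smcr7l (0.722) at the top and Fam131b (-0.828) at the bottom. In each of the 4 rankings, members of the same row of genes took 1 of the 3 top places, and for 3 of the 4 the lowest place as well.

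Of these genes from other chromosomes, Jun, a subunit of the AP-1 transcription factor, was at 14.2 FPKM in controls and 18.5 FPKM with Cre (log2 difference 0.38, limma adjusted p = 0.0597). Zfp605, a zinc finger gene, was at 8.92 FPKM in controls and 20.7 FPKM with Cre (1.23, adjusted p = 0.282). Gm15645 was at 1.95 and 1.23 FPKM (-0.63, adjusted p = 0.219). None of them passed the test.

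The depth of the libraries is unknown, since the table holds no fragment counts and all 16 libraries list between 5726 and 6649 genes at 0. Xist and Y-linked genes placed 14 libraries as male and 2 as female, which were the first replicates of the control and APC cKO groups, so both of the other lines were sampled in males alone. The labelled tissue was checked with 9 lists of cell type markers. Excitatory neuron markers were present in all libraries, with a summed level of 1229 to 1310 FPKM in controls and 1067 to 1376 FPKM with Cre. In 0 of the 9 lists did the summed level separate the Cre libraries from controls, and by limma 0 of 43 marker genes were called and 4 (9.30%) had an unadjusted p under 0.05, against 8.99% of all genes tested. The striatal projection neuron markers summed to 58.1 to 234 FPKM in controls and 50.5 to 311 FPKM with Cre, and the choroid plexus and ependyma markers to 2.66 to 6.51 and 1.96 to 11.9 FPKM. Both sets varied within each group, and their part in the values of the 4 genes was not tested.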

How the data were processed

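RNA from prefrontal cortex was sequenced by the authors as 16 libraries from TruSeq stranded mRNA preparation. They mapped reads to mm10 with TopHat2 2.0.10 and made normalized values with the Cufflinks2 and Cuffdiff 2.1.1 tools. Groups were taken from the genotype label of each sample. The deposited values were read as log2(FPKM + 1). Neither the base nor the offset of 1 is stated, and both were inferred. Unexpressed genes are listed at 0. FPKM times transcript length in kilobases sums to 974121 to 1035351 per library with log2 and to 8259948 to 9003345 with natural logs. The definition of FPKM caps this sum. Some log2 sums lie slightly above the cap, and all sums with natural logs lie far above it. Mean annotated transcript lengths of 20887 genes were used, so the sums are approximate. The deposited values were turned back into FPKM. No deposited value column was left unused (0 columns).

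limma 3.58.1 (R 4.3.3; lmFit, contrasts.fit, eBayes with a trend) was run on log2(FPKM + 0.1) for the 13978 genes that averaged 0.5 FPKM or more, in one model of the 4 genotypes with 12 residual degrees of freedom. This scale understates the change of low genes. A gene was called at a p-value under 0.05 after Benjamini-Hochberg adjustment. The fit was tested on simulated data. The labels do not say that the samples came from separate litters, so p-values measure only the spread between these samples. Plots came from matplotlib 3.10.9 and tables from pandas 2.3.3, under numpy 2.4.6 and Python 3.11.15.

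The 4 genes and all lists were chosen with earlier results of these data known. Named beside them are Apc, Ctnnb1, the 2 nearest tested genes on each side and any called or separated gene within 2 Mb, the 2 most abundant and any called gene of each list, and the 3 most and 1 least correlated genes. Alternatives were other pseudocounts, filters and scalings, no trend, sex, replicate blocks, fewer groups and each library left out. The values of 1 gene that this rule names are not reported here.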

Additional observations from a re-analysis of the deposited data

Results flagged for a closer look

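In 96 groups of 4 libraries, from 24 genes named above, the highest or lowest library was compared with the others of its group, and 9 stood apart by Dixon's criterion, where chance gives about 4.8. Of the 4 chromosome 6 genes 1 was among them. Zyx in β-cat cOE replicate 3 was at 20.3 FPKM against 18.5 to 18.5 FPKM in the others, a gap of 0.994 of the range in a group whose other libraries were nearly equal.

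The nearest tested neighbour, Fam115a, was at 65.7 FPKM in APC cKO replicate 2 (others 57.4 to 58.3) and at 55.9 FPKM in β-cat cOE replicate 4 (others 60.6 to 61.2). In APC/β-cat cKO replicate 4, Cycs was at 96.7 FPKM (others 86.7 to 87.6), Limd1 at 2.103 FPKM (others 2.34 to 2.36) and Fam131c at 2.72 FPKM (others 1.45 to 1.54). Trip6 was at 2.23 FPKM in APC/β-cat cKO replicate 2 (others 1.46 to 1.54). Evl was at 37.8 FPKM in control replicate 4 (others 44.8 to 46.0), and Gstm5 at 222 FPKM in APC cKO replicate 3 (others 192 to 196).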

How the results depend on the processing

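The 4 genes' log2 differences were recomputed under 27 alternatives, of which 10 left out no library. Of 716 values, 712 moved by less than the spread between replicates. Of the 404 differences from control 0 changed sign, and of the 312 differences between lines, whose sign no test had called, 14 did. The 4 that moved more were those of Casp2 with a pseudocount of 1, at -0.70 for all Cre lines and at -0.67, -0.66 and -0.76 line by line, since a larger pseudocount shrinks the difference of a low gene. For all Cre lines against control the values ran from -0.89 to -0.74 for Gstk1, -0.96 to -0.70 for Casp2, 0.73 to 0.76 for Fam131b and 0.43 to 0.52 for Zyx. Among the Cre lines 0 of the 4 passed in any fit, with adjusted p of 0.498 to 0.965 for Gstk1, 0.549 to 0.896 for Casp2, 0.727 to 0.980 for Fam131b and 0.290 to 0.683 for Zyx. The smallest unadjusted p for Zyx, 0.00720, came without APC cKO replicate 3, and that for Gstk1, 0.0483, without APC cKO replicate 1. No neighbour and no listed gene passed in any fit.

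Over all genes, the 5 calls against control became 3 with 2 groups of libraries, and 4 to 28 with a library left out, 28 without control replicate 1. The 36 calls among the Cre lines became 15 with the title number as a replicate block, and 17 (without β-cat cOE replicate 1) to 68 (without control replicate 1) with a library left out. The causes were not tested. Samples of the same title number mostly did not deviate together (r over 0.1 in 4 of 21 pairs, median -0.069, highest 0.32). Such values cannot show whether the numbers pair the samples. A block on the library number in the table's header was added after seeing the data, and gave 4 calls against control and 25 among the lines. Depth could not be checked, so low genes such as Casp2 rest on an unknown number of fragments.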
